A study of Mus musculus with 4 samples.

Results

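Transforming growth factor beta (TGF-beta) and activin are secreted dimers of one protein family, and 10 of their genes were followed here in cultured mouse pigment cells that have or lack the aryl hydrocarbon receptor (AhR). They were the ligands Tgfb1, Tgfb2, Tgfb3 and Inhba, the receptors Tgfbr1, Tgfbr2 and Tgfbr3, the latency proteins Ltbp1 and Ltbp2, and the activator Thbs1. A gene belonged to the family if the array annotation gave a probe set its symbol alone, and 10 of the 12393 genes measured did so, through 17 probe sets. Where a gene had several probe sets, the one with the highest mean signal over all 4 arrays gave its main value. The family was drawn up with its differences between the genotypes already known. Its differences, and the p-values printed with them, therefore describe where each gene stood on these arrays and are no independent support.

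The cells were melanocytes from the epidermis of the tail, kept without serum in a medium that selects for them during 6 to 8 weeks, and all were visibly pigmented at the end. Arrays of 2 female mice of the strain AhRtm1Bra, in which exon 2 of Ahr is deleted, were set against arrays of 2 female wild-type C57Bl/6 mice. No inducer of AhR is named in the labels, and each array held the RNA of an individual animal (n = 2 per genotype). AhR is a transcription factor activated by dioxins and by products of light, and the arrays addressed which transcripts differ when it is missing.

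TGF-beta is secreted in a latent form. Its propeptide stays wrapped around the ligand and is tethered to the matrix by latent TGF-beta binding proteins, and integrins, proteases or thrombospondin 1 release it. The freed ligand brings together a type II and a type I receptor kinase, which phosphorylate SMAD proteins. Activin uses its own type II and type I receptors and the same SMAD proteins. In the skin, TGF-beta is known to restrain melanocyte growth and pigment synthesis and to keep melanocyte stem cells quiescent.

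In these cultures Tgfb2 and Inhba fell in AhR knockout cells. The differences of Thbs1 and Tgfbr1 were also negative and did not pass the threshold, with adjusted p = 0.057 and 0.075 in limma. The ligand genes Tgfb1 and Tgfb3 differed by less than 0.5 on the log2 scale.

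The promoters of Tgfb2 and Inhba are printed because these were the family members past the threshold. Each is the RefSeq window from 250 bases before to 50 bases after the annotated start, on build GRCm38.p6. The Tgfb2 window is chr1:186705940-186706239 on the minus strand, and the Inhba window is chr13:16011601-16011900 on the plus strand. Both are written 5′ to 3′ along the gene, and capitals mark matches to the motifs GCGTG and TATAAA on either strand.
Tgfb2 promoter: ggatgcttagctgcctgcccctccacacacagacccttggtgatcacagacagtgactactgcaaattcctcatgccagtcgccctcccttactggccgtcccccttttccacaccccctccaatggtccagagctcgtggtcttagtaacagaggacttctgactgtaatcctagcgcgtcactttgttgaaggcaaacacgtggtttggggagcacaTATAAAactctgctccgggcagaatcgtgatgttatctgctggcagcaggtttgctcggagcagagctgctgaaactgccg
Inhba promoter: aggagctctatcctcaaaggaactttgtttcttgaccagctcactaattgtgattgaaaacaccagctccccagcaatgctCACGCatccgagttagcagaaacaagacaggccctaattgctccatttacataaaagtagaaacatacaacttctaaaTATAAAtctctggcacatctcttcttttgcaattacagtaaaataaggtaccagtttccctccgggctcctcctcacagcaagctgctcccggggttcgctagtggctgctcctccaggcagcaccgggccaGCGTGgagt
GCGTG is the core of the response element that AhR binds. TATAAA is the sequence of the TATA box, which can place the start of transcription. The Tgfb2 window held TATAAA at -31 to -26 and 0 matches to GCGTG. The Inhba window held TATAAA at -91 to -86, and it held GCGTG on the reverse strand at -169 to -165 and on the forward strand at 42 to 46. Of all 32851 promoter windows of that length, 32.4% held GCGTG and 13.6% held TATAAA. The AP-1 site TGANTCA, the cyclic AMP element TGACGTCA and the SMAD box repeat GTCTAGAC had 0 matches in both windows. They occurred in 7.81%, 1.79% and 0.213% of all windows. Windows were held for 7 of the 10 genes. A match describes these letters alone and shows no binding.

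The arrays were checked first. The brighter Ahr probe set read 241 and 843 in AhR knockout 1 and 2, against 825 and 874 in wild type 1 and 2, so it did not separate the genotypes. Its position in the gene was not analysed here, and only a probe within the deleted exon could check the labels. Cyp1b1, an enzyme gene that AhR induces, read 14.01 and 23.1 in the knockout arrays against 1216 and 1410 in wild type. The array labelled AhR knockout 2 stood apart. Its Gapdh control had a 3′ to 5′ signal ratio of 11.9, against 1.98 to 2.85 on the other arrays, and its actin control had a ratio of 28.0, against at most 8.71. This ratio rises with shortened RNA, so the difference of each tested family gene is also given without that array. Precision is limited by the number of arrays.

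Differences are AhR knockout minus wild type in log2(signal + 16), with the standard error (SE) from limma. The added 16 makes the change of a dim gene look smaller than it was. A gene was tested if its mean signal lay in the top 60%, at 81.2 or above, and passed at a Benjamini-Hochberg adjusted p under 0.05 over all 7435 tested genes. Of the family, 8 genes were bright enough to test. Tgfbr3 and Ltbp2 were not. Over the tested genes 71 passed, which is 0.955%, with 15 higher (0.202%) and 56 lower (0.753%) in AhR knockout. Of the family 2 genes passed, both lower, and since the family was chosen on the same comparison that count is not read against the background. An exact permutation of 2 against 2 arrays cannot give a p below 0.333, so every p here rests on the spread that limma shares over genes.

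**Figure D1:**
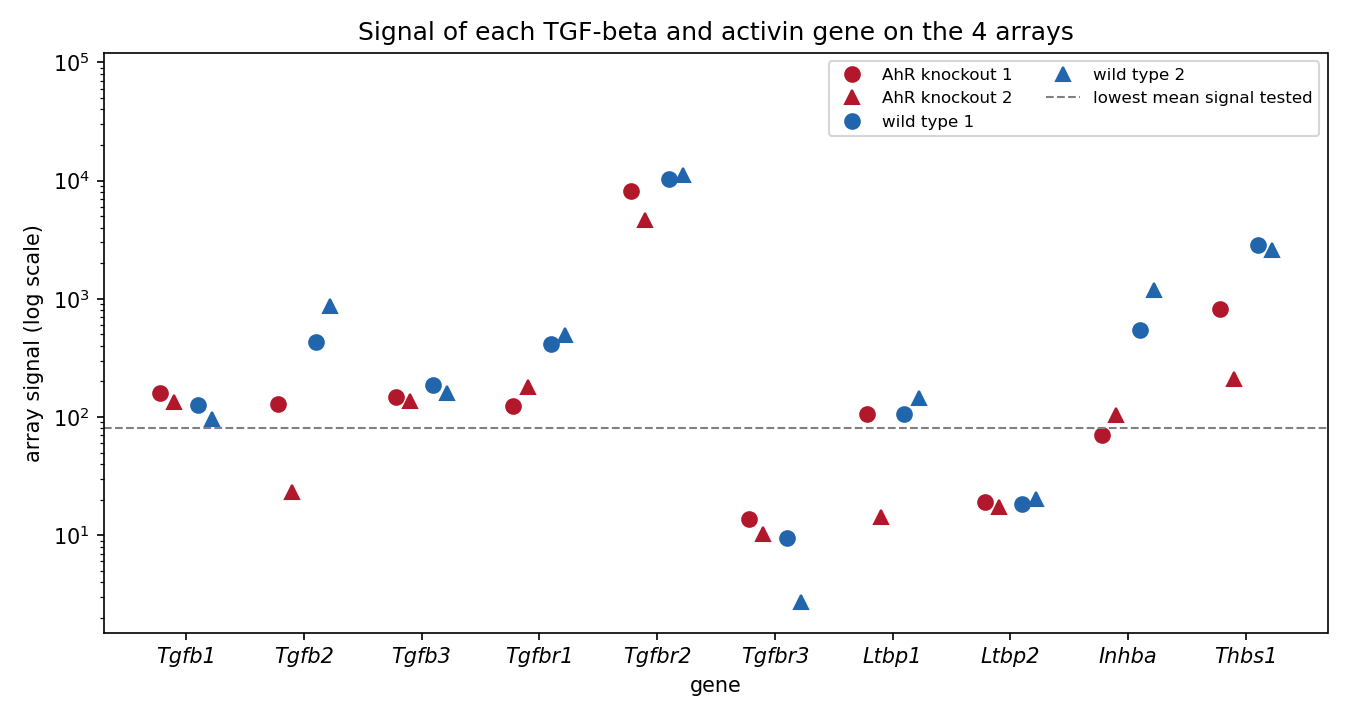
Signal of the 10 genes on each array, on a log axis, with AhR knockout arrays in red left of wild-type arrays in blue (circle, animal 1; triangle, animal 2). Tgfb2, Inhba, Tgfbr1 and Thbs1 lay lower in both knockout arrays than in both wild-type arrays, and Tgfbr3 and Ltbp2 lay under the dashed line at 81.2, the lowest mean signal tested.

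Among the ligands, Tgfb2 and Inhba had differences of like size. Tgfb2 encodes TGF-beta 2, an isoform needed in embryonic heart, eye and neural crest development. Its signal was 129 and 23.3 in AhR knockout 1 and 2, against 435 and 877 in wild type 1 and 2. Both knockout arrays lay below both wild-type arrays, and the animals of each genotype differed widely among themselves. The log2 difference was -3.07 ± 0.59 (SE), 8.40-fold lower, with adjusted p = 0.049 in limma. The call was narrow. It was lost without wild type 2, at a difference of -2.58, and under 5 other settings, with adjusted p between 0.057 and 0.20. Without AhR knockout 2 the difference was -2.13. The mean over the knockout arrays was 76.3, under the testing limit of 81.2, so Tgfb2 entered the test through its wild-type signal of 656 on average.

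The other Tgfb2 probe sets also separated the genotypes. The second read 73.6 and 50.2 in the knockout arrays against 324 and 474 in wild type, a log2 difference of -2.41. The third read 67.4 and 105 in the knockout arrays against 179 and 227 in wild type, a log2 difference of -1.12. All 3 probe sets pointed the same way. Their sizes ranged from -1.12 to -3.07, so the fold depends on which is read, and so does the order of the knockout animals, since AhR knockout 2 was the higher in the third.

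Inhba encodes the beta A chain, a pair of which forms activin A. Its only probe set read 70.3 and 104 in AhR knockout 1 and 2, against 540 and 1190 in wild type 1 and 2. The knockout arrays were close to each other and far below both wild-type arrays. The log2 difference was -3.01 ± 0.44, 8.06-fold lower, with adjusted p = 0.022 in limma, and 17 tested genes had a smaller p. Unlike that of Tgfb2, the lower of its knockout signals was on AhR knockout 1. Without AhR knockout 2 the difference was -3.25. The call was lost without wild type 2, at -2.45 with adjusted p = 0.057, and when dim genes were tested too, with adjusted p = 0.19.

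The other TGF-beta ligands showed small differences. Tgfb1, the isoform most widely made by blood and connective tissue cells, read 159 and 133 in the knockout arrays against 125 and 95.7 in wild type. Both knockout arrays lay just above the wild-type arrays, with a log2 difference of 0.36 ± 0.36 and adjusted p = 0.58 (0.48 on the log2 scale without AhR knockout 2). Tgfb3, the isoform needed for closure of the palate, read 148 and 136 in the knockout arrays against 188 and 160 in wild type. It lay just below, with a log2 difference of -0.26 ± 0.35 and adjusted p = 0.70 (-0.21 on the log2 scale without AhR knockout 2). Neither difference exceeded its SE. Whether Tgfb2 differed from Tgfb1 and Tgfb3 in its response was not tested.

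**Figure D2:**
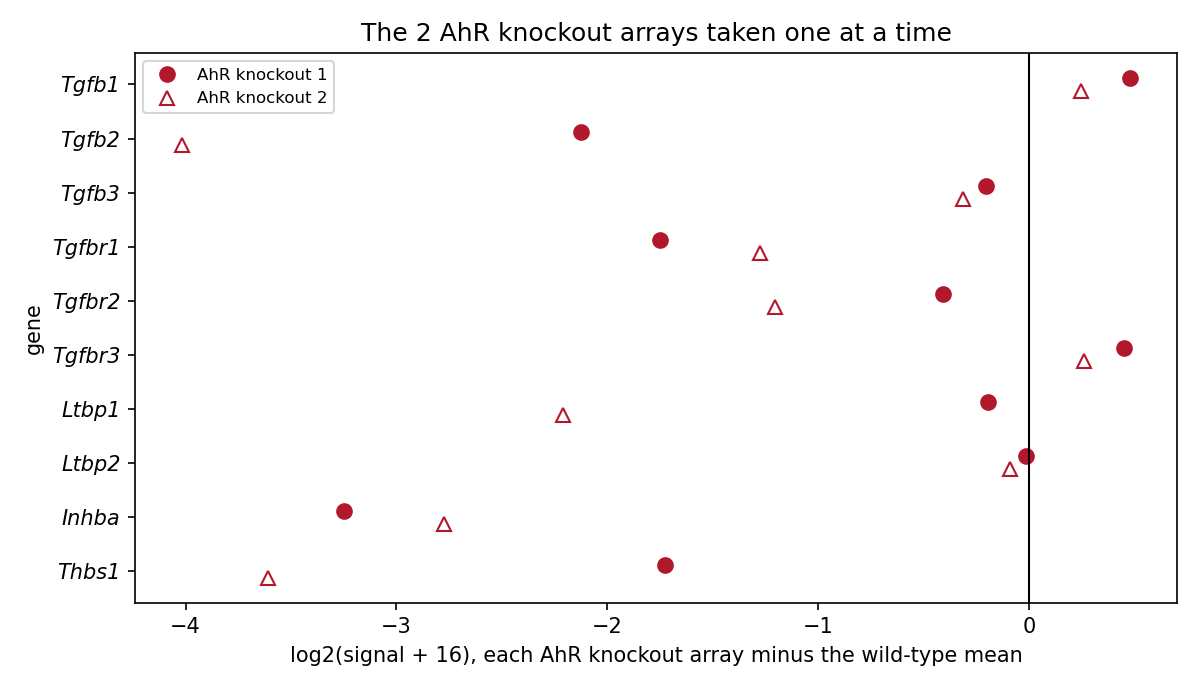
Difference of each AhR knockout array from the mean of the wild-type arrays, in log2(signal + 16), for the 10 genes (filled circle, AhR knockout 1; open triangle, AhR knockout 2). Inhba and Tgfbr1 lay far below 0 in both arrays with the lower value in AhR knockout 1, whereas Tgfb2, Thbs1, Tgfbr2 and Ltbp1 were lower in AhR knockout 2.

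The kinase receptors Tgfbr1 and Tgfbr2 both had negative differences, and neither passed. Tgfbr1 encodes the type I receptor kinase, which phosphorylates SMAD2 and SMAD3. Its brightest probe set read 124 and 178 in AhR knockout 1 and 2, against 416 and 495 in wild type 1 and 2. The genotypes were further apart than the animals within each, and the log2 difference was -1.51 ± 0.37 with adjusted p = 0.075. With single arrays left out, the difference of Tgfbr1 was -1.75 without AhR knockout 2 and -1.28 without AhR knockout 1. It was -1.63 without wild type 1 and -1.39 without wild type 2. Its other probe sets read between 1.17 and 17.8 on all arrays and showed no such difference, at 0.01 and 0.44. At that signal they give little information. Averaging all 3 probe sets gave Tgfbr1 a log2 difference of -0.35, with adjusted p = 0.52 in limma. Tgfbr2 averaged likewise gave -0.64, so the order of these receptors depends on the probe sets read.

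Tgfbr2 encodes the type II receptor kinase, which binds the ligand first. It read 8110 and 4648 in AhR knockout 1 and 2, against 10277 and 11238 in wild type 1 and 2. The wild-type arrays were close and both knockout arrays lay below them. The log2 difference was -0.81 ± 0.32 with adjusted p = 0.20. Without AhR knockout 2 it was -0.41, and without AhR knockout 1 it was -1.21, so its size rested on AhR knockout 2. A dim second probe set read 57.0 and 7.02 in the knockout arrays against 88.7 and 59.8 in wild type, and the third read 11.2 or less on every array.

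Tgfbr3 encodes betaglycan, a co-receptor that presents TGF-beta 2 to the type II receptor. It read 13.8 and 10.2 in the knockout arrays against 9.48 and 2.74 in wild type. At these signals the array shows no usable level, and the gene was not tested.

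**Figure D3:**
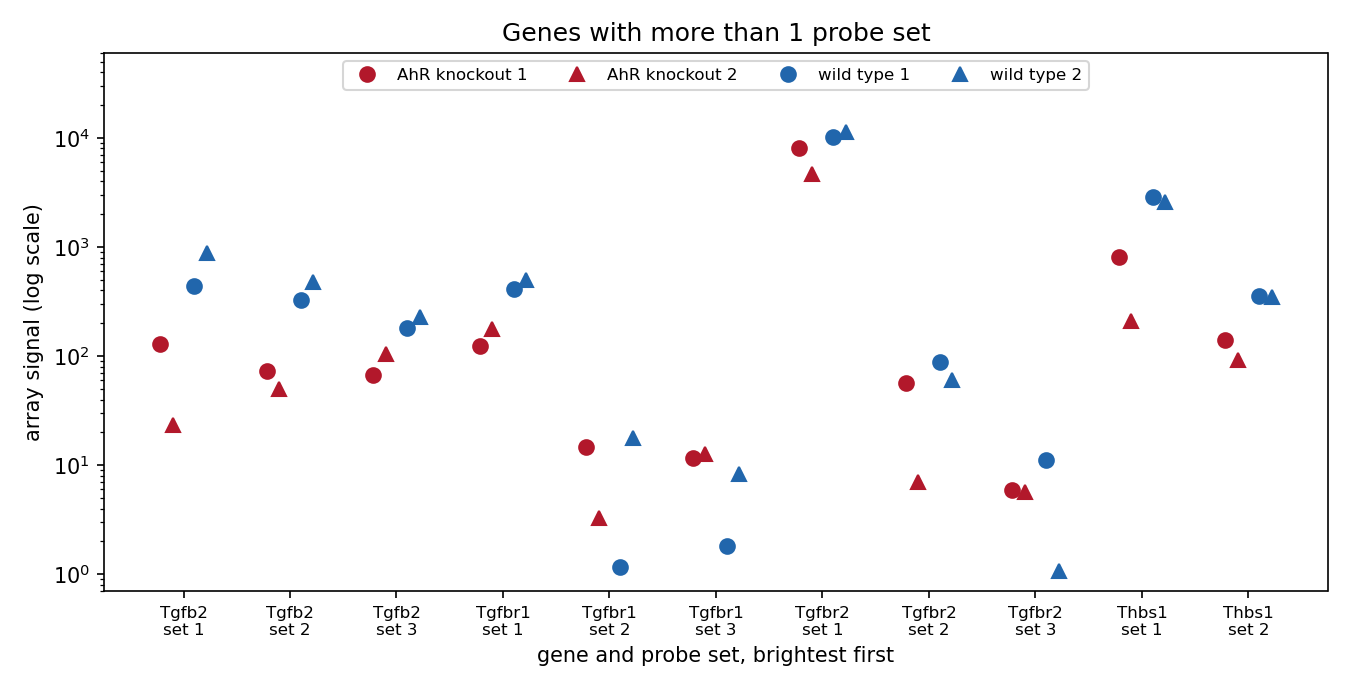
Signal of every probe set of the 4 genes with more than 1, brightest first, on a log axis (AhR knockout in red, left of wild type in blue). The 3 probe sets of Tgfb2 and both of Thbs1 had lower signals in both knockout arrays, and the dim probe sets of Tgfbr1 and the dimmest of Tgfbr2 did not.

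The latency proteins gave no separation. Ltbp1 encodes the binding protein that anchors latent TGF-beta to fibrillin and fibronectin in the matrix. It read 107 and 14.4 in AhR knockout 1 and 2, against 106 and 145 in wild type 1 and 2. AhR knockout 1 was close to wild type 1, and the signal was low in AhR knockout 2 alone, so the genotypes overlapped. The log2 difference was -1.20 ± 0.59 with adjusted p = 0.28, and without AhR knockout 2 it was -0.19. Without AhR knockout 1 it was -2.21. Ltbp2, which belongs to the same family but does not bind latent TGF-beta, read 19.1 and 17.4 in the knockout arrays against 18.5 and 20.4 in wild type, too dim to test.

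Thbs1 encodes thrombospondin 1, a matrix glycoprotein that can release TGF-beta from its propeptide. It read 815 and 209 in AhR knockout 1 and 2, against 2876 and 2595 in wild type 1 and 2. Both wild-type arrays were alike, and the knockout arrays lay far below them at unequal levels. The log2 difference was -2.67 ± 0.55, 6.35-fold lower, with adjusted p = 0.057. Its second probe set read 142 and 92.1 in the knockout arrays against 359 and 352 in wild type, a log2 difference of -1.51. With each single array left out the difference of the main Thbs1 probe set stayed negative, at -1.73 without AhR knockout 2. The difference was -3.61 without AhR knockout 1, -2.59 without wild type 1 and -2.74 without wild type 2.

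Across the family, both knockout arrays lay below both wild-type arrays for 6 of the 10 genes and above them for 2. Over all measured genes these shares were 20.7% below and 29.4% above. Over the tested genes they were 26.7% below and 28.7% above, 55.4% in all. Of the 10 genes 8 had a difference below 0, against 43.9% of all measured genes. Of the 8 tested, 7 had a difference below 0, against 49.7% of all tested genes, and 5 had an unadjusted p under 0.05, against 20.6%. Nothing is read from these counts, since the family was chosen on this comparison. The log2 difference of AhR knockout 2 minus AhR knockout 1 was -1.89 for Tgfb2, -1.88 for Thbs1 and -2.01 for Ltbp1. For Inhba and Tgfbr1 it was 0.47 and 0.48. By their main probe sets, some family genes were therefore low on both knockout arrays to a like degree. Others had signals that differed several-fold between these arrays, of which AhR knockout 2 had the high 3′ to 5′ ratios. Other probe sets did not repeat the several-fold gap. In AhR knockout 1 and 2 the third Tgfb2 probe set read 67.4 and 105, and the second Thbs1 probe set read 142 and 92.1.

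Markers of several cell types differed between the arrays as well. Of 10 endothelial markers, 9 were lower in AhR knockout. Their median difference from wild type was -1.05 on the log2 scale in AhR knockout 1, and it was -2.43 in AhR knockout 2. Their summed signal was 17866 and 7193 in AhR knockout 1 and 2, against 22426 and 24662 in wild type 1 and 2. Of them 0 were listed at 0, and Pecam1, the adhesion protein of vessel lining, read 503 and 138 in the knockout arrays against 955 and 1463 in wild type. Cldn5, a junction protein of the same cells, went the other way, at 4688 and 2845 in the knockout arrays against 1510 and 1555 in wild type. Of 8 fibroblast markers, 4 were tested and 3 of these were lower. The summed signal of the 8 was 2623 and 1670 in the knockout arrays against 2676 and 5089 in wild type. Most of it was Thy1, which overlapped between the genotypes, at 2181 and 1363 in the knockout arrays against 1886 and 4063 in wild type. Melanocyte markers were higher for 6 of the 7 measured, with sums of 79485 and 106155 in the knockout arrays against 67261 and 53935 in wild type. Mitf went the other way, at 1668 and 2462 in the knockout arrays against 2771 and 2644 in wild type. Tyrp1, the brightest of these markers, overlapped between the genotypes, at 20294 and 30093 in the knockout arrays against 19809 and 20547 in wild type. Of 8 leukocyte markers 5 were tested and 4 of these were higher, with a median of 1.04 on the log2 scale, and the summed signal was 6978 and 4343 in the knockout arrays against 2496 and 2430 in wild type. Lyz2, a lysozyme of macrophages, read 2628 and 2776 in the knockout arrays against 669 and 881 in wild type. Cd68 went the other way, at 808 and 208 in the knockout arrays against 819 and 578 in wild type. Ptprc was too dim to test, at 2.06 and 26.1 in the knockout arrays against 24.4 and 13.7 in wild type. The sum of 8 keratinocyte markers was high in AhR knockout 1 alone, at 1975 and 519 in AhR knockout 1 and 2 against 831 and 770 in wild type 1 and 2. Pericyte and smooth muscle markers summed to 3210 and 3766 in the knockout arrays against 3543 and 2486 in wild type. Of the leukocyte, keratinocyte and pericyte lists 0 genes passed in limma, with 4 at an unadjusted p under 0.05. These lists had 5, 6 and 3 tested genes, and 20.6% of all tested genes had such a p. Of the endothelial list Sox17 passed (adjusted p = 0.049 in limma), and of the fibroblast list Col3a1 (adjusted p = 0.041), both lower. The marker lists were chosen with earlier results known, so nothing is read from these counts. Vessel, connective tissue and blood cells also make TGF-beta, and the part of these markers in the differences of Tgfb2, Inhba, Tgfbr1 and Thbs1 was not tested. In a culture of mixed cells, fewer cells of a type and less RNA per cell cannot be told apart. By main probe sets, Tgfb2 and Thbs1 were lowest in AhR knockout 2, as was the sum of the endothelial markers. Inhba and Tgfbr1 were lowest in AhR knockout 1. The third Tgfb2 probe set was lowest in AhR knockout 1 as well, at 67.4 against 105 in AhR knockout 2. The Gapdh ratio was 11.9 on AhR knockout 2, and what set this order was not tested.

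Outside the family, 83 other genes of the pathway were listed in 5 groups, of which 73 were measured and 51 were bright enough to test. Of these 0 rose and 3 fell, against 0.955% called in either direction over all tested genes. Over all tested genes 0.202% rose and 0.753% fell. The 3 were Tll1, Lox and Col3a1, and their means in the knockout arrays, between 29.4 and 72.8, were below the testing limit. They entered the test through their wild-type signal. The lists were chosen with earlier results of these data known, so nothing is read from their counts against these shares. The median log2 difference over all tested genes was 0.01.

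Other ligands and soluble inhibitors showed no common direction. Of 5 tested, 3 were higher and 2 lower. By limma 0 passed, although Inhbb had an unadjusted p of 0.014. The median log2 difference was 0.0049, and it changed sign with the array left out, at 0.43 without AhR knockout 2 and -0.63 without AhR knockout 1. Inhbb, the beta B chain of activin B, read 545 and 175 in AhR knockout 1 and 2, against 726 and 1279 in wild type 1 and 2. Its log2 difference was -1.58 ± 0.53 with adjusted p = 0.15. Fstl1, a secreted follistatin-like glycoprotein, differed by -0.54. Fstl3, which binds and neutralises activin, differed by 0.32 and Dcn, decorin, which binds TGF-beta, by 0.39. Fst, follistatin itself, read 65.9 and 73.0 in the knockout arrays against 86.7 and 95.5 in wild type and lay just below the testing limit in its mean.

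Of the other receptors 5 were tested, of which 3 were lower and 2 higher. By limma 0 passed, although Acvr2a had an unadjusted p of 0.0072. Their median difference was -0.33 on the log2 scale, and 0.14 without AhR knockout 2. Acvr2a, a type II activin receptor, read 107 and 168 in AhR knockout 1 and 2, against 278 and 600 in wild type 1 and 2. The genotypes did not overlap, and the log2 difference was -1.50 ± 0.44 with adjusted p = 0.11. Acvrl1, a type I receptor of endothelium, differed by -0.58 and Bambi, a decoy receptor without a kinase, by -0.33. Eng, endoglin, the endothelial co-receptor, differed by 0.23.

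Genes of latency and activation split evenly. Among 14 tested genes, 7 had a positive and 7 a negative difference. Their median was -0.01 on the log2 scale, and 1 gene fell. Tll1, a protease related to bone morphogenetic protein 1 that processes matrix proteins, read 31.5 and 27.3 in AhR knockout 1 and 2, against 265 and 396 in wild type 1 and 2. Its log2 difference was -2.90 ± 0.38 with adjusted p = 0.022 in limma. Thbs2, the paralogue of Thbs1, read 693 and 380 in the knockout arrays against 940 and 1325 in wild type, a log2 difference of -1.10 ± 0.42 with adjusted p = 0.19. Plau, the urokinase that makes plasmin, read 901 and 22.6 in the knockout arrays against 836 and 880 in wild type, so its difference of -2.22 lay in AhR knockout 2 alone. Ltbp4, another latent TGF-beta binding protein, differed by 0.73, and Itgb5, a subunit of a TGF-beta-binding integrin, by 0.60.

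For the SMAD proteins and their feedback regulators, 0 genes passed in limma. Among 11 tested genes, 9 had a negative and 2 a positive difference, and 3 had an unadjusted p under 0.05, near the 20.6% of all tested genes that did. Their median was -0.46 on the log2 scale, and -0.77 without AhR knockout 1. Smad2, a SMAD phosphorylated by both TGF-beta and activin receptors, read 250 and 276 in AhR knockout 1 and 2, against 469 and 528 in wild type 1 and 2. Animals of each genotype were close, and the log2 difference was -0.88 ± 0.35 with adjusted p = 0.20. Skil, a repressor of SMAD complexes that TGF-beta itself induces, read 637 and 1654 in the knockout arrays against 2043 and 3930 in wild type, a log2 difference of -1.45 ± 0.50 with adjusted p = 0.16. Pmepa1, an induced inhibitor of the pathway, differed by -0.95 with adjusted p = 0.18 and Tgif1, a corepressor, by -0.86. Smad7, the inhibitory SMAD, read 92.0 and 88.1 in the knockout arrays against 124 and 111 in wild type, a log2 difference of -0.33 ± 0.36.

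**Figure D4:**
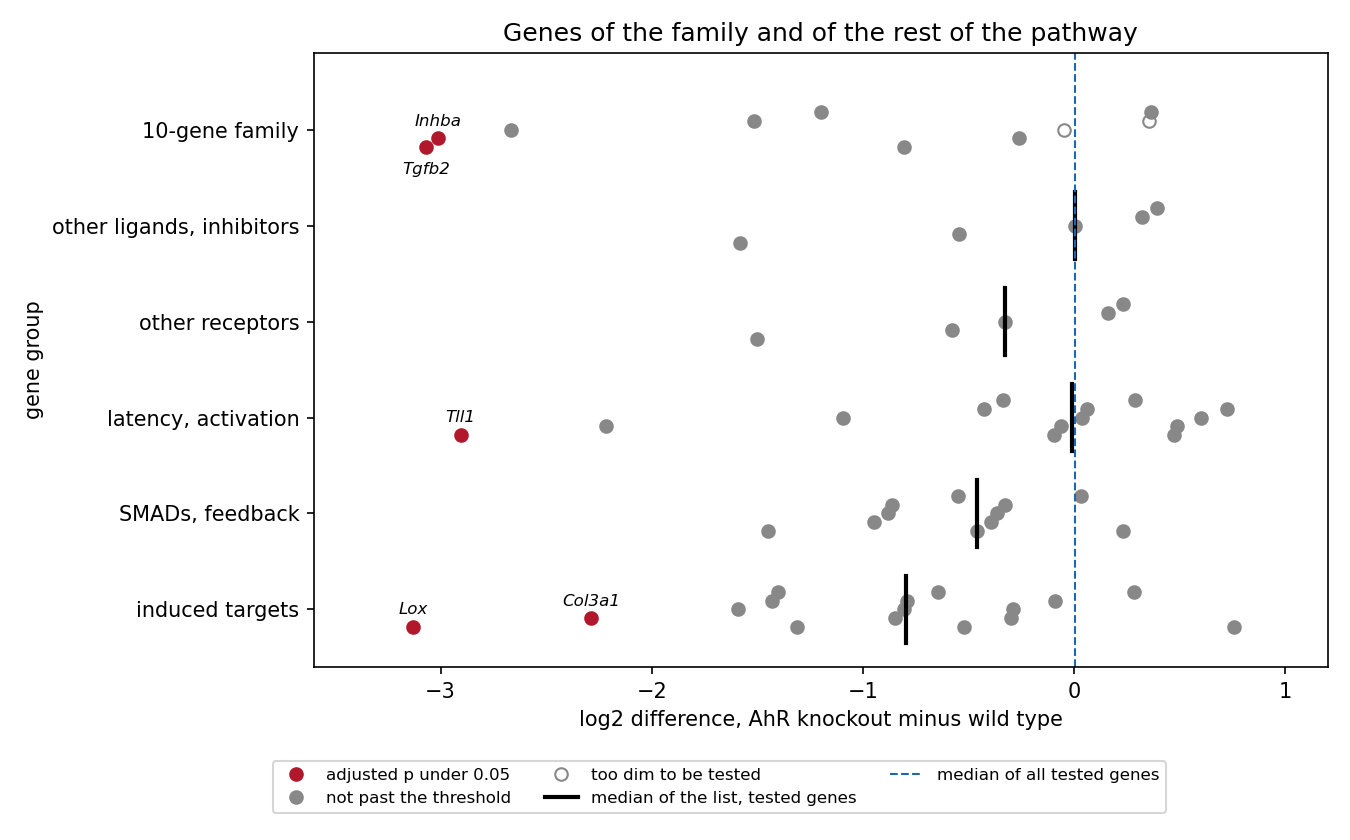
Log2 difference, AhR knockout minus wild type, of the 10 genes and of the tested genes in 5 other groups of the pathway (red, adjusted p under 0.05; grey, not past it; open, too dim to be tested; black bar, median of a list; dashed line, median of all tested genes). The lists of induced targets and of SMADs and feedback genes had medians of -0.80 and -0.46, and the lists of other ligands and of latency genes had medians near 0.

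Genes that TGF-beta is known to induce were lower more often than higher. Among 16 tested genes, 14 had a negative and 2 a positive difference. Their median was -0.80 on the log2 scale, and 2 genes fell. Lox, the enzyme that cross-links collagen, read 73.2 and 62.1 in AhR knockout 1 and 2, against 591 and 865 in wild type 1 and 2. It differed by -3.13 ± 0.37 on the log2 scale (adjusted p = 0.021 in limma), and by -1.73 as the mean of its probe sets. Col3a1, a fibrillar collagen chain also used as a fibroblast marker, read 95.1 and 50.5 in the knockout arrays against 372 and 439 in wild type. It differed by -2.29 ± 0.39 (adjusted p = 0.041 in limma), and without wild type 2 the adjusted p was 0.15. Ccn2, a matricellular protein and a usual readout of TGF-beta, read 6320 and 3449 in the knockout arrays against 12052 and 13192 in wild type, a log2 difference of -1.43 ± 0.33 with adjusted p = 0.069. Ccn1, its relative, differed by -1.59 with adjusted p = 0.095. Zeb1, a transcription factor of mesenchymal cells, differed by -1.40 and Timp1, a metalloproteinase inhibitor, by -1.31. The main exception was Cdkn1a, an inhibitor of the cell cycle, which read 7811 and 8722 in AhR knockout 1 and 2 against 5932 and 4017 in wild type 1 and 2. It differed by 0.76 ± 0.31 on the log2 scale (adjusted p = 0.21 in limma). It was singled out after its values were seen. Many of these genes respond to other signals too, and SMAD activity was not measured.

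Genes with the pattern nearest to a family member were sought among all tested genes, by the Euclidean distance between log2 values centred on the mean of the 4 arrays. Nearest to Tgfb2 were Map4k5 at a distance of 0.50, Ptgs2 at 0.55 and Pmaip1 at 0.62. Ptgs2, the inducible cyclooxygenase, read 57.3 and 15.7 in AhR knockout 1 and 2, against 341 and 620 in wild type 1 and 2. Nearest to Inhba were Nox4 at 0.46, Sncaip at 0.56 and Pbp2 at 0.58. Nox4, an NADPH oxidase, read 80.4 and 75.3 in the knockout arrays against 611 and 1094 in wild type. Nearest to Thbs1 were Sox17 at 0.39, Rflnb at 0.42 and Papss2 at 0.46. Sox17, an endothelial transcription factor and one of the endothelial markers above, read 365 and 76.4 in the knockout arrays against 1446 and 1531 in wild type. With 4 arrays such a likeness is a description only.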

How the data were processed

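Per the labels' protocols, amplified RNA of 4 cultures was biotinylated for Affymetrix arrays of 1 colour. The authors deposited signal intensity on a linear scale, made with MAS5 (version not given) per the submitters' processing notes. Each array had a trimmed mean of 500.2 to 500.3 over the middle 96% of its probe sets, so a shift of most transcripts would be divided out. Detection calls were not used here.

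Of 22690 probe sets, 20380 had a single gene symbol in the platform annotation, and 20351 of these matched a gene identifier of the RefSeq table of GRCm38.p6, which updated the symbols. The brightest probe set by mean signal stood for a gene. log2(signal + 16) was fitted with limma 3.58.1 in R 4.3.3 (lmFit, eBayes with trend, no block, all 4 arrays), two-sided, for the genes in the top 60% by mean. The fit was tested on simulated data. Figures used matplotlib 3.10.9 in Python 3.11.15.

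Groups came from the sample titles. The family, the pathway and marker lists, the tests and the naming rule were chosen with earlier results of these data known. Named were all 10 family genes, each pathway gene past the threshold, up to 4 more per list by smallest p, Ccn2 and Smad7, and the 3 genes nearest to Tgfb2, Inhba and Thbs1. Fst, Cdkn1a and the cell markers were added after their values were seen. Alternatives were other scalings, pseudocounts, filters, probe set rules, eBayes without trend, the title number as a block, and each array left out.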

Additional observations from a re-analysis of the deposited data

How the results depend on the processing

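Under 14 alternatives, of which choosing probe sets and filtering by the mean of log2 values was added after seeing the data, every family gene kept the sign of its difference wherever it could be computed. The filters, eBayes without trend and the block cannot change the difference itself. Leaving out 1 array cannot turn its sign where the genotypes do not overlap. The kept sign is therefore no support. The calls were less stable. Inhba passed in 12 of 14 and Tgfb2 in 8 of 14. The family count was 2, and it was 1 with quantile normalization, with a pseudocount of 1, with the top 40% of genes and without the eBayes trend, and in each of these Inhba was the gene kept. With no filter 0 family genes passed in limma, with 4 at an unadjusted p under 0.05, and Inhba and Tgfb2 had adjusted p = 0.19 and 0.20 over 12393 genes. With single arrays left out the count ran from 1 without wild type 2, where only Thbs1 passed, to 6 without AhR knockout 1, and was 4 without AhR knockout 2. A lone array is then assumed to vary like the other group. With arrays left out, the count over all genes was also lowest without wild type 2 and highest without AhR knockout 1. Nothing is therefore read from these family counts.

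Over all genes 71 passed. The count was 26 with quantile normalization, 43 with a pseudocount of 1, 1 with no filter and 20 with the top 40%, and it ran from 20 without wild type 2 to 1360 without AhR knockout 1. With equal array medians 31.9% of calls were rises, against 21.1% as deposited. The pathway lists had 3 calls, 0 with no filter, 1 with the top 40%, and between 2 and 15 with arrays left out. The title numbers are not stated to mark a shared litter or day, and a pairing cannot be settled from 2 pairs (correlation of deviations 0.35). With the replicate number as a block, 1406 genes, 5 family genes and 13 pathway genes passed.

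The median of the latency list was 0.094 with quantile normalization, 0.077 with equal medians, -0.060 with the top 40% and 0.049 with the mean of probe sets, and ran from -0.050 to 0.015 with arrays left out, so it has no settled sign. That of the induced targets was -0.63 with a pseudocount of 64, -0.58 with no filter and -0.64 with the top 40%, and ran from -1.15 to -0.60 with arrays left out. With arrays left out, that of the SMAD and feedback list ran from -0.77 without AhR knockout 1 to -0.43 without AhR knockout 2. It was -0.33 with quantile normalization, the nearest to 0 of all alternatives. The median of the other receptors was 0.20 with no filter and 0.23 with the top 40%, against -0.33 in the main fit, so it has no settled sign either. The causes were not tested. A filter changes both how many genes share the adjustment and which genes limma shares the spread over.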
